A study of Homo sapiens with 17 samples.

Results

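The translation factors described here are the proteins that start, extend and end the reading of a messenger RNA by the ribosome. Members were chosen by symbol alone: protein-coding genes whose names begin with EIF1 to EIF6 (the EIF2AK kinases left out), EEF1 or EEF2, together with the release factors ETF1 and GSPT1. The rule found 66 of the 19141 genes of the count table. They were sorted by role into the eIF3 complex (14 genes), cap-binding factors (11), regulators of eIF4E (4), eIF2 and eIF2B (11), factors of scanning and subunit joining (7), elongation factors (9), modifiers of elongation factors (6), release factors (2) and 2 others. EEF1E1 was placed among the elongation factors by its name, which does not show that it acts in elongation. The Y-linked member EIF1AY was counted and is given no value. The rule used no measured value, and 64 members passed the filter on low counts in the comparisons at 2, 24, 48 and 72 h and 65 in the comparison at 10 h.

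All libraries came from YB5 cells, a derivative of the human colon cancer cell line SW48 that carries a green fluorescent protein gene behind a methylated, silent viral promoter. The cells received either the vehicle DMSO or 250 nM toyocamycin, an adenosine analog studied as an inhibitor of the transcription kinase CDK9, and polyA-selected RNA was sequenced. Each arm had 2 libraries at 2 h, 1 library at 24 h, 1 library at 48 h and 3 libraries at 72 h, and the 10 h time point had 1 DMSO and 2 toyocamycin libraries. The longest treatment lasted 72 h by the sample labels, which are followed here, and 96 h by the published description. The labels name 2 batches, with replicate 2 of each arm at 2 and 10 h in batch 2 and all other libraries in batch 1. All groups are the same cell line, so no result covers other colon cancer cells, and nothing in the labels says that libraries of a group came from separate cultures, so p-values measure the spread between these libraries.

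The libraries held from 8735465 to 22121364 counts on genes, the fewest in replicate 2 of toyocamycin at 10 h, where mitochondrially encoded genes held 6.55% of the counts against 0.917% to 3.49% elsewhere. Of the colon epithelial markers, CDX2, EPCAM, CDH1, KRT8 and KRT18 were present in every library, at 30.9 CPM (a gene's counts scaled to a common library total) or more, whereas VIL1 stayed at or below 5.53 CPM and KRT20 at or below 0.774 CPM. At 72 h on toyocamycin 4 of these 5 lay below every DMSO library: CDH1 (30.9 to 35.4 against 258 to 397 CPM), KRT18 (31.6 to 38.6 against 175 to 1280 CPM), EPCAM (90.9 to 121 against 253 to 315 CPM) and KRT8 (256 to 280 against 752 to 4690 CPM). CDX2 overlapped (96.9 to 114 against 56.6 to 284 CPM), and the part of this shift in the results was not tested. The markers of other cell types lay low: PTPRC, CD3E, PDGFRB, PECAM1 and ALB reached at most 3.65 CPM and COL1A1 at most 12.3 CPM. In bulk RNA, fewer cells of a kind and less RNA per cell cannot be told apart.

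Translation begins when the cap-binding complex eIF4F (eIF4E, which holds the cap, eIF4G, the scaffold, and eIF4A, the helicase) and the large eIF3 complex bring an mRNA to the small ribosomal subunit. The subunit carries the initiator tRNA on eIF2, scans to the start codon, releases its eIF2, which eIF2B then recharges, and is joined by the large subunit. eEF1A then delivers each aminoacyl-tRNA and eEF2 moves the ribosome along, and eRF1 and eRF3 release the finished chain. Many of these genes, the elongation factors above all, make mRNAs that start with a C and a run of pyrimidines, the terminal oligopyrimidine (TOP) tract, through which the cell couples their translation to growth signals.

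The annotated start of members was therefore read from the RefSeq promoter windows (GRCh38.p14, 250 bases before to 50 after each start), which held 52 of the 65 members given values. A C within 4 bases of the start, followed by at least 5 bases that are each C or T, read on the gene's own strand, was found in 14 of these 52 (26.9%) and in 9.1% of all 27305 windows. It was found in 5 of 8 eIF3 genes, 3 of 11 cap-binding factors and 2 of 7 elongation factors. The windows below, of 30 bases centred on the annotated start, show members whose levels moved apart at 72 h although they share such a start, with the tract in capitals, and EEF1B2, whose annotated start lacks it.
EEF1A1 (chr6:73521018-73521047, minus strand): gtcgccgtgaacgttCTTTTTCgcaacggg
EEF2 (chr19:3985449-3985478, minus strand): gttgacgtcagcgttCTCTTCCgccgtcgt
EIF4A2 (chr3:186783562-186783591, plus strand): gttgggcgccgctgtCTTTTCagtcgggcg
EIF4G2 (chr11:10807982-10808011, minus strand): gaggttgtcggaagcaCTTCCCTaacttgc
EIF3M (chr11:32583816-32583845, plus strand): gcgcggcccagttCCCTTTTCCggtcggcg
EIF3K (chr19:38619173-38619202, plus strand): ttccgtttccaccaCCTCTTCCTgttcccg
EEF1B2 (chr2:206159594-206159623, plus strand): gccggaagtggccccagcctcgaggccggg
A tract in these letters is a description of the annotated start and does not show where transcripts of YB5 cells begin.

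The letters CACGTG, the same on both strands and known as the preferred site of MYC and related factors, stood in 13 of the 52 windows (25.0%) and in 7.43% of all windows. They were present in 4 of 11 cap-binding factors, among them EIF4E and EIF4G1 with 2 copies each. Their copies nearest to the start are shown with 12 bases on each side, beginning 72 bases before the start of EIF4E and 67 bases before that of EIF4G1.
EIF4E (chr4:98929188-98929217, minus strand): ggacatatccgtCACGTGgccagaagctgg
EIF4G1 (chr3:184314527-184314556, plus strand): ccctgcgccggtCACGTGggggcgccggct
EIF3K (chr19:38619073-38619102, plus strand): cgaggaagaagtCACGTGgcagccggaaag
At 72 h the 13 members with CACGTG had a median log2 fold change of -0.93 (4 higher, 8 lower) and the 38 tested members without it had 0.39 (20 higher, 14 lower), where 47.0% of all genes were higher and 41.9% lower. These groups were formed after the values had been seen and were not tested against each other.

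Counts were scaled with edgeR's TMM method, which assumes that most genes do not change, and levels are given as CPM on that scale. A gene was called higher or lower on toyocamycin at a Benjamini-Hochberg adjusted p under 0.1 from edgeR's quasi-likelihood test over all genes. At 24 and 48 h, with 1 library in each arm, no p is given and genes past 2-fold are counted instead. Other scalings moved the whole distribution: the median log2 fold change of all genes was 0.02, 0.42, 0, 0.16 and 0.18 at the 5 time points with TMM. It was -0.06, -0.70, -2.16, -1.64 and -0.89 when libraries were instead scaled to their mitochondrially encoded genes. Directions below are therefore relative to the other genes.

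In DMSO libraries the 4 members most abundant for their length were elongation factors, while the other 5 elongation factors had a median of 22.9 CPM per kilobase or less. EEF1A1, which encodes eEF1A, had a median level of 3200 CPM per kilobase of its canonical transcript (2420 to 4120), and EEF2 had 1500 (1370 to 1900). EEF1B2, the exchange factor that recharges eEF1A, had 646 CPM per kilobase (487 to 849) and EIF5A 551 (432 to 685), and these 2 ranges overlapped. The highest initiation factors by these counts, EIF4G2 at 302 and EIF4H at 273 CPM per kilobase, also overlapped in range (236 to 414 and 199 to 309). Members that share most of their sequence with other annotated genes lose reads and cannot be ranked in this way. Among them are EIF4A1 (0.903 CPM per kilobase) and EIF3C (13.9).

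The level of each member over time is shown as a fold change in the heat map.

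**Figure D1:**
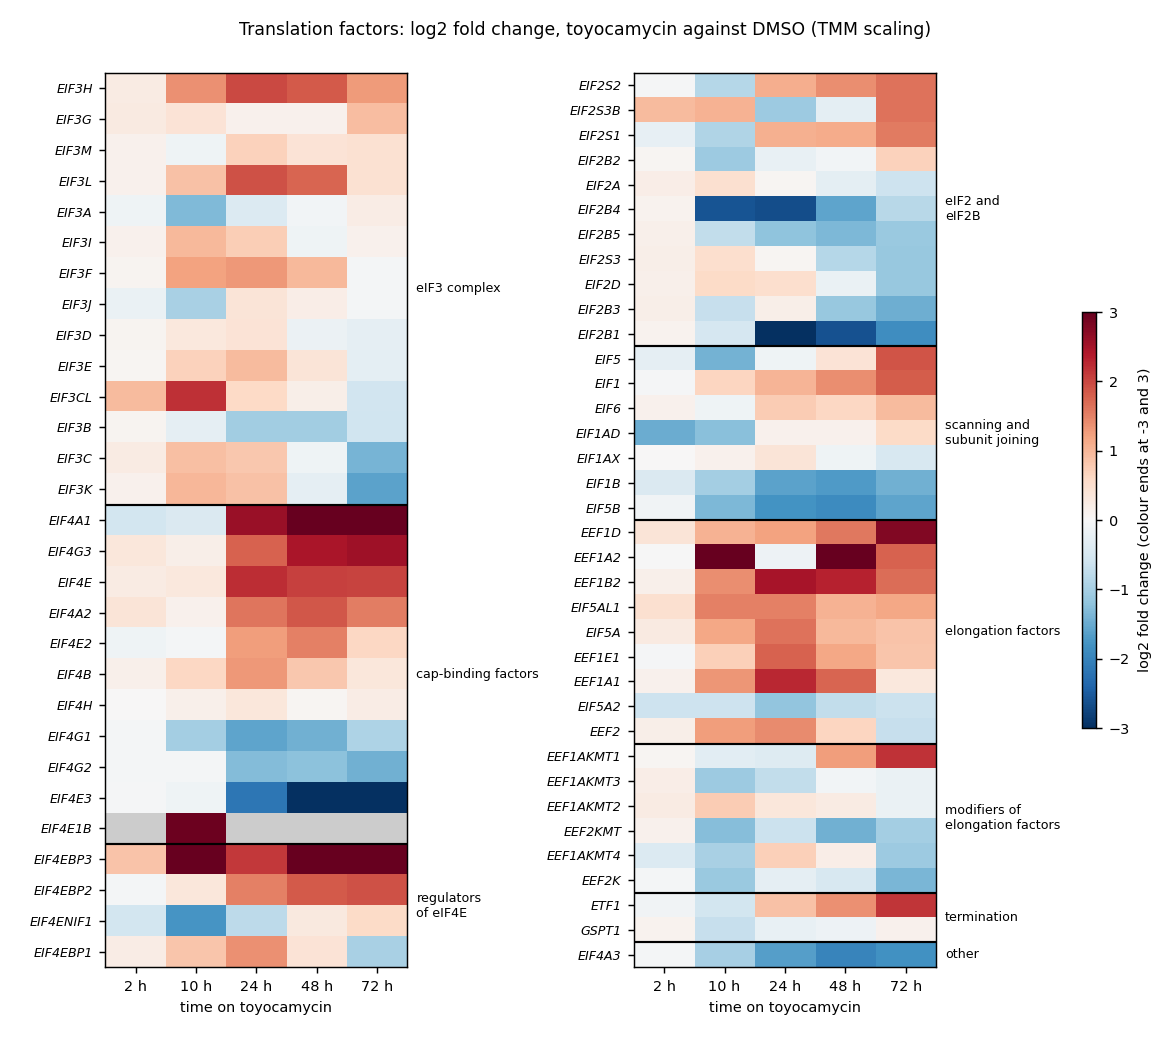
Log2 fold change of 65 members, toyocamycin against DMSO, at the labelled times, with members in rows by role, TMM scaling, colours that saturate at 3 in either direction, and gray where a gene was not tested. At 2 h most cells are near white, at 10 and 24 h most elongation factors are red, and at 72 h each large group holds red and blue rows; with mitochondrial scaling 20 of the 34 members past 2-fold at 24 h and 13 of the 55 called at 72 h turn direction.

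After 2 h few members were called. Of 64 members tested, 2 were called lower and 0 higher, where 8.42% of all genes were lower and 0.518% higher. At an unadjusted p under 0.05 from edgeR there were 4 lower and 1 higher, and the share of all genes at that threshold was not computed. DESeq2's Wald test called 0 higher and 2 lower, where 0.614% of all genes were higher and 7.97% lower. EIF1AD (chromosome 11, 65996545 to 66002176), whose product resembles the scanning factor eIF1A, stood at 33.8 and 35.7 CPM on DMSO and at 10.6 and 14.1 CPM on toyocamycin. The arms did not overlap, and the log2 fold change stood at -1.50 (SE 0.18, adjusted p = 9.95e-05). It stayed a call without any of the 4 libraries of 2 h and was lost with mitochondrial scaling (adjusted p = 0.198, the highest of a range from 9.82e-24). EIF4ENIF1, the transporter that carries eIF4E into the nucleus, stood at 16.6 and 15.6 CPM on DMSO and at 11.7 and 10.1 CPM on toyocamycin (log2 fold change -0.56, adjusted p = 0.0807). This call was lost with any of the 4 libraries left out (adjusted p = 0.14 to 0.375).

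Replicate numbers at 2 h coincide with the batches named in the labels, so that each toyocamycin library has a DMSO partner. With this number as a block, 8 members were higher and 6 were lower of 62 tested, where 8.72% of all genes were higher and 18.7% lower. The 8 were EIF3CL, EIF4A2, EEF1D, EIF4G3, EIF5AL1, EIF3G, EIF3H and EIF4E, with log2 fold changes of 0.24 to 1.04. The 6 were EIF1AD, EIF4ENIF1, EIF5A2, EIF1B, EIF5 and EIF2S1, with log2 fold changes of -1.52 to -0.24. Adjusted p from edgeR with the block was 0.0971 or lower for each of the 14. This fit held only the 4 libraries of 2 h, so its p-values, such as the 9.82e-24 of EIF1AD, rest mostly on a spread shared across genes. EEF1A1, EEF2, EEF1B2 and EIF5A, the abundant elongation factors, were not among them.

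By 10 h EEF1A1, EEF2, EEF1B2, EIF5A, EEF1D and EIF5AL1 were higher with TMM scaling, and none was called higher with mitochondrial scaling. Of 65 members tested, 19 were higher and 21 lower, where 20.4% of all genes were higher and 24.4% lower. With batch as a term 21 of 65 members were higher against 37.8% of all genes, and without replicate 1 of toyocamycin, the library of the other batch, 21 were higher against 39.1%, so how the members compare with all genes depended on that choice. Among elongation factors 6 of 9 were higher and 0 lower, with a median log2 fold change of 1.26, against 0.42 over all genes. The eIF3 complex had 8 of 14 higher and 2 lower (median 0.79), where 3 of the 8 (EIF3C, EIF3CL and EIF3L) have uncertain counts that reads of near-identical or overlapping genes could alter. The cap-binding factors had 1 of 11 higher and 1 lower (median 0.12). EEF1A1 (chromosome 6, 73489308 to 73525587) stood at 11900 CPM on DMSO and at 28700 and 31200 CPM on toyocamycin (log2 fold change 1.33, standard error (SE) 0.287, adjusted p = 0.00197). EEF2 (chromosome 19, 3976056 to 3985463) stood at 4540 CPM on DMSO and at 11800 and 10100 CPM on toyocamycin (log2 fold change 1.26, adjusted p = 0.00134). Both toyocamycin libraries lay above the DMSO library for each, and the pair within batch 2 gave 1.39 for EEF1A1 and 1.15 for EEF2 on a log2 scale with 0.5 CPM added.

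Of the 9 elongation factors, 8 had a log2 fold change above 0 at 10 h with TMM, with DESeq2's size factors and with library size alone, and 6 with mitochondrial scaling. The median of the elongation factors lay 0.84 above that of all genes, a distance that a change of scaling leaves nearly as it is by construction. With scaling on the mitochondrially encoded genes the 8 eIF3 calls and all other higher calls were lost, where 3.04% of all genes were called higher. The median log2 difference of the elongation factors was 1.18 within batch 2 and 1.27 across batches, and for the eIF3 genes it was 0.71 and 0.70. The DMSO arm is 1 library, and its spread was taken from the other groups.

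Subunits of eIF3 parted at 10 h. EIF3H stood at 128 CPM on DMSO and at 317 and 351 CPM on toyocamycin (log2 fold change 1.38, adjusted p = 0.00075), and EIF3F at 158 against 386 and 346 CPM (1.21, adjusted p = 0.000633). EIF3A, the largest subunit and the scaffold of the complex, stood at 631 CPM on DMSO and at 261 and 246 CPM on toyocamycin (-1.32, adjusted p = 0.000301). EIF3J, a loosely bound subunit, was lower as well (-0.98, adjusted p = 0.00759). EIF3B, EIF3D, EIF3G and EIF3M were not called, with log2 fold changes of -0.26 to 0.42.

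The genes of eIF2 and its exchange factor eIF2B were mostly lower at 10 h, 7 of 11 against 1 higher, where 24.4% of all genes were lower and 20.4% higher. The 11 also hold EIF2A, EIF2D and EIF2S3B, none of them among the 7. EIF2B4, the delta subunit of eIF2B, stood at 33.6 CPM on DMSO and at 4.85 and 6.30 CPM on toyocamycin, a log2 fold change of -2.60 (adjusted p = 1.28e-06). EIF2B1, EIF2B2, EIF2B3 and EIF2B5, the other 4 subunits, were also lower, by log2 fold changes of -0.51 to -1.08. EIF2S1 and EIF2S2, the alpha and beta subunits of eIF2, were lower by 0.91 and 0.85 on the log2 scale, whereas EIF2S3, the gamma subunit, was not called (0.51, adjusted p = 0.154). EIF2D, an eIF2-independent factor, was the member called higher (0.58, adjusted p = 0.0498). Outside the 3 groups compared and the release factors, members at 10 h were named after their values had been seen.

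Scanning factors, release factors and the modifiers of elongation factors were lower at 10 h more often than higher. Of the scanning and joining factors, 4 of 7 were lower and 1 higher, where 24.4% of all genes were lower and 20.4% higher. EIF5, which triggers GTP hydrolysis on eIF2 at the start codon, stood at 296 CPM on DMSO and at 117 and 105 CPM on toyocamycin (log2 fold change -1.42, adjusted p = 0.000191), and EIF1AD was still lower (-1.26, adjusted p = 0.00073). Both release factors were lower, ETF1 by 0.55 (adjusted p = 0.0936) and GSPT1 by 0.68 (adjusted p = 0.029) on the log2 scale. EEF2K, the kinase that inhibits eEF2, stood at 51.5 CPM on DMSO and at 23.2 and 24.6 CPM on toyocamycin (-1.11, adjusted p = 0.000538). Without replicate 2 of toyocamycin at 10 h, the library that stands apart, the calls of EIF4B, EIF3L, ETF1 and EIF2D were lost (adjusted p = 0.102 to 0.252). Without replicate 1 those of EIF2B1, EIF4EBP3 and EIF1 were lost (adjusted p = 0.102 to 0.256).

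Summed over its genes, each group followed its abundant members. The 9 elongation factor genes together held 14500 to 20200 CPM in the 8 DMSO libraries. On toyocamycin they held 19400 and 21800 CPM at 2 h, 43500 and 43800 CPM at 10 h, 62000 CPM at 24 h, 38800 CPM at 48 h, and 23600, 22000 and 19200 CPM at 72 h. The toyocamycin libraries of 10, 24 and 48 h thus lay above every DMSO library, and those of 72 h overlapped the DMSO libraries. The eIF3 genes held 2450 to 3360 CPM on DMSO and 2960 to 3510 CPM on toyocamycin, and the cap-binding factors 3100 to 4360 and 3500 to 4430 CPM, with overlap in both.

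Without TMM, as a percentage of the counts of a library, the elongation factors held 1.67% to 2.43% on DMSO, 3.66% and 4.54% at 10 h, 4.08% at 24 h and 2.98% at 48 h. At 72 h they held 1.78%, 1.59% and 1.45% on toyocamycin, below the 1.96%, 2.17% and 2.20% of DMSO. The eIF3 genes held 0.361%, 0.359% and 0.377% on DMSO at 72 h and 0.264%, 0.233% and 0.244% on toyocamycin. The elongation factors at 10 to 48 h thus lay above DMSO on both scales, and the order of the arms at 72 h depended on the scale.

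**Figure D2:**
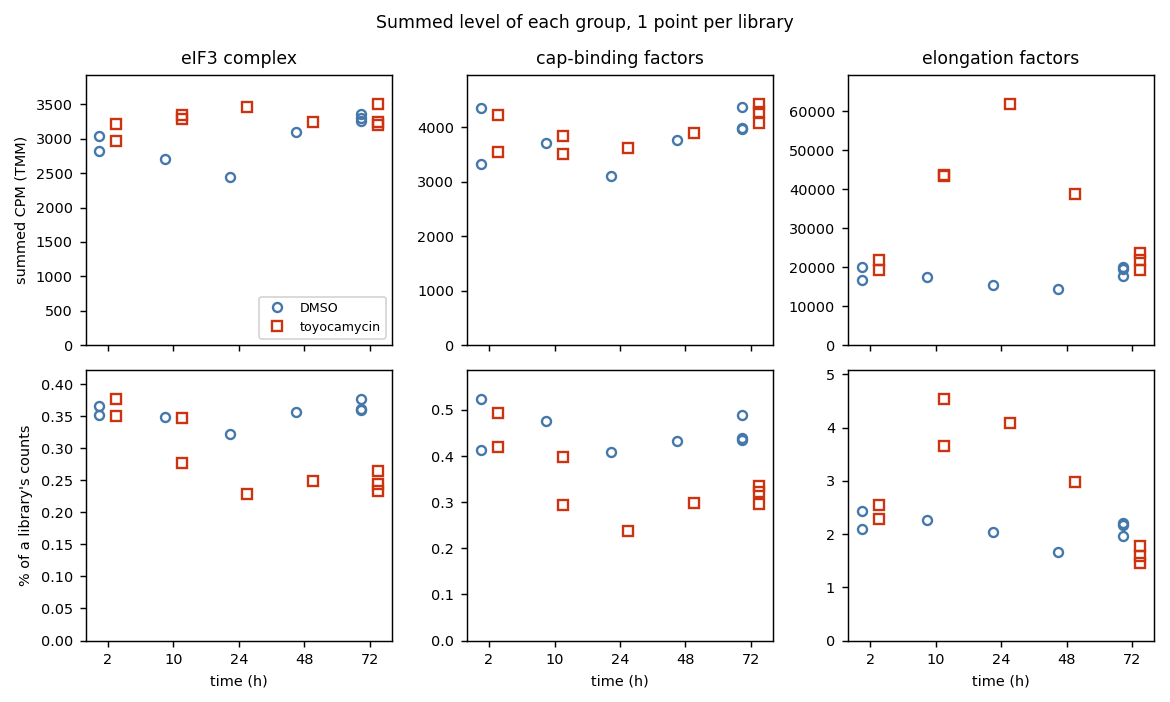
Summed level of the eIF3 complex, cap-binding factors and elongation factors in each of the 17 libraries (circles DMSO, squares toyocamycin) against the labelled time in hours (evenly spaced), in CPM after TMM in the upper row and as a percentage of the library's counts in the lower row. The elongation factors peak at 62000 CPM at 24 h, while for eIF3 and the cap-binding factors the arms overlap in CPM and the toyocamycin libraries of 24 to 72 h lie below DMSO in percent.

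At 24 h, 22 of 64 members were past 2-fold higher and 12 past 2-fold lower, where 29.7% of all genes were higher and 27.8% lower by that measure. The elongation factors had a median log2 fold change of 1.52 (7 of 9 past 2-fold higher), the cap-binding factors 1.27 (6 of 10) and the eIF3 complex 0.71 (3 of 14), against 0 over all genes. These medians turned negative with mitochondrial scaling (-0.75, -1.01 and -1.57). The 6 cap-binding factors past 2-fold include EIF4A1, and the 3 eIF3 genes include EIF3L, and both have uncertain counts. EEF1A1 stood at 9520 CPM on DMSO and at 45000 CPM on toyocamycin, and EEF1B2 at 408 and 2260 CPM. EIF4E, the cap-binding protein itself, stood at 51.4 and 236 CPM. EIF4G1, the main scaffold of eIF4F, stood at 781 and 256 CPM, the opposite direction. EIF2B1, the alpha subunit of eIF2B, had 41.0 CPM on DMSO and 3.51 CPM on toyocamycin.

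At 48 h, 20 of 64 members were past 2-fold higher and 12 past 2-fold lower, where 38.1% of all genes were higher and 29.9% lower. The elongation and cap-binding factors both had a median log2 fold change of 1.17, against 0.15 for eIF3 and 0.16 over all genes, and scaled to the mitochondrially encoded genes the 3 medians were -0.67, -0.68 and -1.70. EEF1A1 stood at 8510 CPM on DMSO and 27900 CPM on toyocamycin, and EEF2 at 4670 and 7180 CPM. EIF4G3, a scaffold related to eIF4G1, stood at 73.3 and 395 CPM, and EIF4G1 at 1090 and 396 CPM. The levels of 8 members in all libraries are plotted below.

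**Figure D3:**
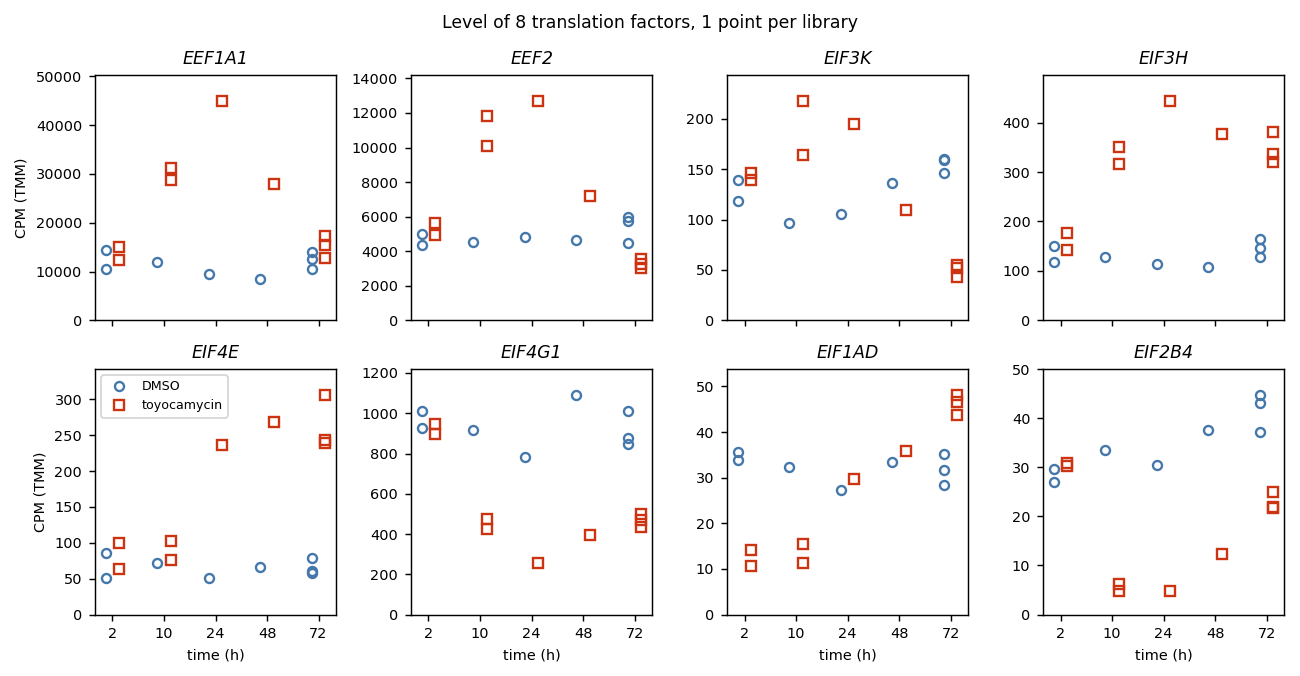
CPM after TMM of 8 members in each library (circles DMSO, squares toyocamycin) against the labelled time in hours (evenly spaced), with each axis starting at 0. EEF1A1 and EEF2 peak at 24 h on toyocamycin at 45000 and 12700 CPM, EIF3K lies below DMSO at 48 and 72 h, EIF1AD is low at 2 and 10 h and above DMSO at 72 h, where its direction turns with library size or mitochondrial scaling, and EIF2B4 is lowest at 10 and 24 h.

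By 72 h, 31 of 64 members were higher and 24 lower, shares of the members near those of all genes, of which 47.0% were higher and 41.9% lower. The cap-binding factors had 7 of 10 higher and 3 lower (median log2 fold change 0.49), the elongation factors 7 of 9 higher and 2 lower (0.86), and the eIF3 complex 4 of 14 higher, 4 lower and 6 not called (-0.06), against 0.18 over all genes. With library size alone the cap-binding median was -0.11, and scaled to the mitochondrially encoded genes those of the cap-binding and elongation factors were -0.58 and -0.21. The 7 elongation factors called higher include EEF1A2, with 4 to 9 counts in each library of 72 h, and EEF1A1, whose arms overlapped. They also include EEF1E1, which was placed in this group by its name. The 7 cap-binding factors called higher include EIF4A1, whose counts are uncertain, and EIF4B, EIF4H and EIF4E2, whose directions turned with mitochondrial scaling. The difference between the groups was not tested. Of the 55 members called, 41 kept their direction under all 4 scalings.

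Among cap-binding factors, eIF4E and the alternative scaffold were higher at 72 h while the main scaffold was lower. EIF4E (chromosome 4, 98879276 to 98929133) stood at 61.4, 57.4 and 79.0 CPM on DMSO and at 306, 239 and 243 CPM on toyocamycin. All 3 toyocamycin libraries lay above all 3 of DMSO, a 4.07-fold rise (log2 fold change 2.02, SE 0.213, adjusted p = 2.72e-07). EIF4G3 (chromosome 1, 20806292 to 21177285) stood at 78.0, 76.2 and 84.7 CPM on DMSO and at 394, 472 and 488 CPM on toyocamycin (2.54, SE 0.132, adjusted p = 7.38e-11). EIF4G1 (chromosome 3, 184314495 to 184335358) stood at 1010, 876 and 846 CPM on DMSO and at 469, 437 and 497 CPM on toyocamycin (-0.93, SE 0.125, adjusted p = 4.28e-06). EIF4G2, which lacks the part that binds eIF4E, stood at 1150, 1160 and 1440 CPM on DMSO and at 478, 423 and 460 CPM on toyocamycin (-1.43, adjusted p = 1.65e-06). The arms did not overlap for any of these 4 genes, and their directions were kept under the 4 scalings.

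The helicase EIF4A2 stood at 185, 226 and 285 CPM on DMSO and at 727, 585 and 654 CPM on toyocamycin (log2 fold change 1.53, adjusted p = 4.5e-07). EIF4A1, its close relative, showed the largest fitted rise of all members, from 0.694, 0.975 and 0.987 CPM to 103, 89.8 and 92.6 CPM (6.76, adjusted p = 2.41e-12). All of the exonic bases of its canonical transcript lie inside readthrough genes of the annotation used here, and reads that overlap more than 1 gene are not counted, so its values are those of the few reads assigned to it and are uncertain. EIF4E3, an eIF4E-like protein of chromosome 3 (71675414 to 71754773), held 187, 206 and 232 counts on DMSO and 0, 3 and 1 counts on toyocamycin. Its summed level on toyocamycin was 1.28% of that on DMSO (95% exact interval 0.348% to 3.3%, counting error only), and the fitted log2 fold change was -6.18 (adjusted p = 2.87e-08). At 48 h the corresponding counts were 293 and 2, or 1.15% of DMSO (0.139% to 4.21%). EIF4E2, which binds caps without starting translation, was higher by 0.62 (adjusted p = 0.00235), turning to -0.44 with mitochondrial scaling. EIF4B and EIF4H, the cofactors of eIF4A, were called at 0.35 and 0.22, and both were negative with library size alone (-0.25 and -0.38) and with mitochondrial scaling (-0.71 and -0.85). The call of EIF4H was lost with any of the 6 libraries of 72 h left out (adjusted p = 0.115 to 0.205 from edgeR), and that of EIF4B without replicate 1 of either arm (0.149 and 0.105). EIF4E1B, a germ cell form, had at most 7 counts in any library.

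The regulators of eIF4E, named here after their values had been seen, also parted at 72 h. EIF4EBP2, a protein that holds eIF4E away from eIF4G, stood at 256, 248 and 256 CPM on DMSO and at 812, 930 and 1040 CPM on toyocamycin (log2 fold change 1.90, adjusted p = 1.91e-09). EIF4EBP1, its relative, stood at 146, 156 and 129 CPM on DMSO and at 67.7, 66.3 and 79.4 CPM on toyocamycin (-0.98, adjusted p = 3.69e-06). At 10 h EIF4EBP1 had been higher with TMM (0.83, adjusted p = 0.0228), turning to -0.25 with mitochondrial scaling. EIF4ENIF1 was higher by 0.58 (adjusted p = 0.0014), a direction that turned to -0.02 with library size alone. EIF4EBP3 had 0 to 7 counts in each DMSO library and shares 73.2% of its exonic bases with a readthrough gene, so its change is uncertain.

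The subunits of eIF3 did not move together at 72 h. EIF3H stood at 129, 147 and 164 CPM on DMSO and at 381, 336 and 320 CPM on toyocamycin (log2 fold change 1.27, SE 0.145, adjusted p = 7.32e-07). EIF3G, an RNA-binding subunit, stood at 217, 228 and 167 CPM on DMSO and at 355, 395 and 380 CPM on toyocamycin (0.92, adjusted p = 6.95e-05), a direction that turned to -0.20 with mitochondrial scaling. EIF3K (chromosome 19, 38619082 to 38636955) stood at 146, 159 and 160 CPM on DMSO and at 54.6, 51.9 and 43.3 CPM on toyocamycin (-1.60, SE 0.129, adjusted p = 1.12e-08). At 10 h the value of EIF3K was 0.99 with TMM and -0.11 with mitochondrial scaling. EIF3B, a core subunit, was lower by 0.59 on the log2 scale (928, 855 and 764 against 570, 524 and 559 CPM, adjusted p = 0.000457). In each of these 4 genes the arms did not overlap. EIF3C was lower (-1.39, adjusted p = 1.97e-07), but 97.0% of the 100-base words of its transcript are shared with EIF3CL, so the counts of the pair are uncertain. EIF3M and EIF3L were called at 0.46 and 0.45 and EIF3D at -0.28, and these 3 directions turned under another scaling. The call of EIF3L was lost without replicate 1 of either arm (adjusted p = 0.132 and 0.104 from edgeR), and that of EIF3D without DMSO replicate 3 or toyocamycin replicate 2 or 3 (0.101 to 0.121). For EIF3L, 58.5% of the exonic bases lie inside another annotated gene. EIF3A, EIF3E, EIF3F, EIF3I, EIF3J and EIF3CL were not called, with log2 fold changes of -0.57 to 0.23.

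Among elongation factors at 72 h, EEF1B2 and EEF1D of the exchange factor were higher, EEF2 was lower and EEF1A1 overlapped between the arms. EEF1B2 (chromosome 2, 206159585 to 206162928) stood at 443, 538 and 546 CPM on DMSO and at 1760, 1570 and 1440 CPM on toyocamycin (log2 fold change 1.68, SE 0.154, adjusted p = 5.39e-08). EEF1D, another subunit of this factor, stood at 44.2, 35.0 and 25.3 CPM on DMSO and at 233, 233 and 234 CPM on toyocamycin (2.78, SE 0.177, adjusted p = 7.15e-10). Genes of the other strand overlap 34.5% of the exonic bases of EEF1D, and the strand setting of the counting is not given. EIF5A, which eases the ribosome past difficult peptide bonds, stood at 841, 731 and 636 CPM on DMSO and at 1350, 1210 and 1360 CPM on toyocamycin (0.86, adjusted p = 1.97e-05), turning to -0.24 with mitochondrial scaling. EEF2 stood at 5760, 5990 and 4500 CPM on DMSO and at 3050, 3540 and 3260 CPM on toyocamycin, without overlap (-0.69, SE 0.15, adjusted p = 0.000507). EEF1A1 stood at 10600, 12600 and 13900 CPM on DMSO and at 17200, 15400 and 12800 CPM on toyocamycin, with overlap (0.32, SE 0.176, adjusted p = 0.0975). That call of EEF1A1 was lost without replicate 1 or 2 of either arm (adjusted p = 0.148 to 0.304), and its direction turned to -0.28 with library size alone and -0.73 with mitochondrial scaling. The call of EEF1E1 (0.83, adjusted p = 0.0172) was lost without replicate 1 of toyocamycin (0.38, adjusted p = 0.206 from edgeR). Of the words of EEF1A1 and EEF1B2, 29.5% and 35.0% recur in pseudogenes.

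**Figure D4:**
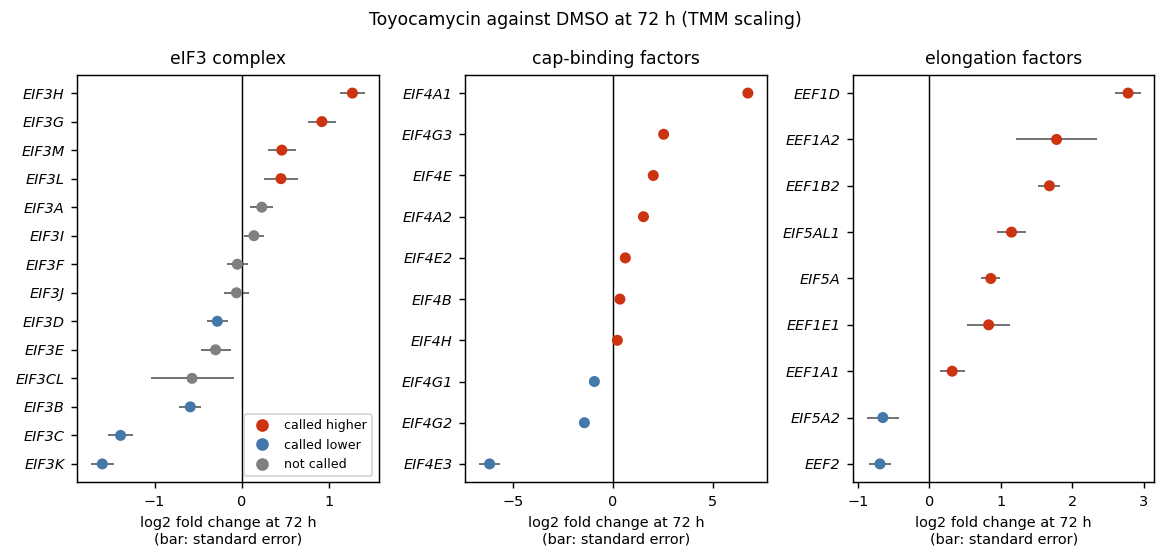
Log2 fold change at 72 h (toyocamycin against DMSO, 3 libraries in each arm, TMM scaling) of each tested eIF3, cap-binding and elongation factor gene, with bars for the standard error and colour for the call at an adjusted p under 0.1. The eIF3 genes spread on both sides of 0 from -1.60 to 1.27, and most cap-binding and elongation factors lie to the right, where EIF4B, EIF4H, EIF3M, EIF3L and EEF1A1 turn to the left with library size or mitochondrial scaling and EIF4E2, EIF3G, EIF5A and EEF1E1 with mitochondrial scaling.

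The 9 members on a list of known TOP mRNAs (EEF1A1, EEF1A2, EEF1B2, EEF1D, EEF2, EIF3E, EIF3F, EIF3H and EIF4B) had a median log2 fold change of 0.15 at 2 h, 1.26 at 10 h (8 higher, 0 lower), 1.31 at 24 h, 1.59 at 48 h and 0.35 at 72 h (6 higher, 1 lower). Over all genes the median was 0.02, 0.42, 0, 0.16 and 0.18 at these times. The shares of all genes higher and lower were 20.4% and 24.4% at 10 h and 47.0% and 41.9% at 72 h. EEF1A1, EEF1A2, EEF1B2, EEF1D and EEF2 are also elongation factors described above, so the list is not a separate set. With mitochondrial scaling the medians at 10, 24, 48 and 72 h were 0.15, -0.96, -0.25 and -0.71, against -0.70, -2.16, -1.64 and -0.89 over all genes. EEF1A2, the form of muscle and neurons, had at most 9 counts in any library other than replicate 2 of toyocamycin at 10 h, where it had 33.

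The alpha and beta subunits of eIF2, lower at 10 h, were higher at 72 h. EIF2S1 stood at 140, 141 and 177 CPM on DMSO and at 506, 388 and 421 CPM on toyocamycin (log2 fold change 1.56, adjusted p = 8.54e-07), and EIF2S2 was higher by 1.63 (adjusted p = 1.49e-07). EIF2S3, the gamma subunit, stood at 138, 146 and 174 CPM on DMSO and at 75.8, 61.4 and 65.6 CPM on toyocamycin (-1.14, adjusted p = 9.27e-06). Of the 5 eIF2B subunits 4 were lower, where 41.9% of all genes were lower. EIF2B1 fell most (42.0, 47.3 and 48.1 against 11.2, 11.4 and 14.3 CPM, -1.86, adjusted p = 5.26e-09), while EIF2B2 was higher by 0.68 (adjusted p = 7.14e-05), turning to -0.40 with mitochondrial scaling. Genes of the other strand overlap 22.4% of the exonic bases of EIF2B1 and 29.3% of those of EIF2B2, and the strand setting of the counting is not given. The genes of this paragraph other than EIF2B1 were named after their values had been seen.

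EIF5 and ETF1, lower at 10 h, were higher at 72 h, and EIF1 was higher at both times with TMM (-0.44 at 10 h with mitochondrial scaling). EIF5 stood at 202, 203 and 248 CPM on DMSO and at 790, 763 and 806 CPM on toyocamycin at 72 h (log2 fold change 1.89, adjusted p = 4.25e-09), and EIF1, which guards the choice of start codon, at 350, 384 and 454 against 1450, 1290 and 1340 CPM (1.81, adjusted p = 7.58e-09). The release factor ETF1 (chromosome 5, 138506095 to 138543236) stood at 139, 136 and 169 CPM on DMSO and at 678, 623 and 619 CPM on toyocamycin (2.15, SE 0.154, adjusted p = 2.8e-09). Its partner GSPT1 was not called (0.13, adjusted p = 0.333). EIF5B, which joins the ribosomal subunits, was lower (235, 223 and 271 against 88.7, 61.7 and 88.1 CPM, -1.58, adjusted p = 8.33e-08). So was EIF4A3, a helicase of the exon junction complex rather than of initiation (246, 234 and 230 against 67.8, 63.0 and 66.3 CPM, -1.82, adjusted p = 7.52e-10). Among the modifiers, EEF2K was lower by 1.37 on the log2 scale (adjusted p = 1.17e-07) and EEF1AKMT1, which methylates eEF1A, was higher by 2.17 (adjusted p = 3.77e-08).

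Whether the effect at 72 h differed from that at 2 h was tested in the same fit. It was higher at 72 h for 22 of 64 members and lower for 22, where 38.0% of all genes were higher and 38.1% lower. EIF1AD was called in opposite directions at 2 h and 72 h (28.5, 31.6 and 35.3 CPM on DMSO against 48.1, 46.5 and 43.8 CPM on toyocamycin at 72 h), a log2 difference of 2.06 (SE 0.229, adjusted p = 8.77e-07), although its rise at 72 h turned to -0.03 with library size alone. EIF4ENIF1 did the same, with a difference of 1.14 (adjusted p = 0.000349). Its call at 2 h was lost with DESeq2's size factors and with all 17 libraries in the fit (adjusted p = 0.104 and 0.129 from edgeR). Its rise at 72 h turned to -0.02 with library size alone and to -0.49 with mitochondrial scaling. The effect on EEF2 was lower at 72 h than at 2 h by 0.87 (adjusted p = 0.00404), and that on EEF1A1 was not shown to differ (0.19, SE 0.278, adjusted p = 0.568).

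Other genes of translation that are not members of these families were counted alongside. Of 36 tested at 2 h, 0 were higher and 5 lower, where 0.518% of all genes were higher and 8.42% lower. The 5 were PPP1R15A (log2 fold change -1.08) and PPP1R15B (-1.36), which direct the phosphatase that restores eIF2, EIF2AK3 (-1.19), a kinase that inhibits eIF2, PELO (-1.17), which rescues stalled ribosomes, and the helicase DDX3X (-0.76). At 10 h 9 of 37 were higher and 17 lower, and at 72 h 16 of 36 were higher and 18 lower, where 20.4% and 24.4% of all genes were higher and lower at 10 h and 47.0% and 41.9% at 72 h. PPP1R15A, PPP1R15B and PELO were higher at 72 h (4.05, 3.36 and 2.91), and EIF2AK2, MTOR and PABPC1 were lower (-2.75, -3.16 and -1.64). The genes of this paragraph were named after their values had been seen. They are not the extremes of the set, which ranged from -3.70 to 10.06 at 72 h. The adjusted p of each named gene was 0.0172 or lower from edgeR's quasi-likelihood test.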

How the data were processed

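PolyA-selected RNA was sequenced in paired ends by the authors, who aligned it with STAR (version 2.7.5a) to GRCh38 with GENCODE annotation and deposited whole-number read counts per gene. STAR counts reads that overlap 1 gene only, so genes inside readthrough genes lose reads, and the strand setting of the counting is not given in the sources used here. The authors' table of fold changes and p-values was not used, nor was 1 column that matched no sample.

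Counts were tested with edgeR 4.0.16 (quasi-likelihood test, TMM scaling, filterByExpr) in R 4.3.3. The 14 libraries of 2, 24, 48 and 72 h were fitted together (14491 genes), and all 17 libraries for 10 h (16521 genes). The 10 h libraries were left out of the first fit because replicate 2 of toyocamycin there stood apart in earlier results of these data. With all 17 libraries, 27 of 65 members were higher and 24 lower at 72 h, where 42.4% of all genes were higher and 36.1% lower. p-values were adjusted over all genes by Benjamini-Hochberg and called under 0.1. Between 8735465 and 22121364 counts per library set the precision. A symbol was found for 18868 gene identifiers. 3 annotated members were not analysed here.

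At 2 h the replicate number is the batch, so the numbers pair the samples (deviations from the group means correlated at 0.619).

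Named genes were the eIF3, cap-binding, elongation and release factors and the 5 largest rises and falls called at 2 and 72 h with a log2 CPM of at least 3 and no overlap between libraries. Members and lists were chosen with earlier results of these data known. Alternatives were DESeq2 1.42.0 size factors and Wald test, library size alone, mitochondrial scaling, no filter, other fits and leaving out each library. The scripts were tested on simulated data.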

Additional observations from a re-analysis of the deposited data

Results flagged for a closer look

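The effect of toyocamycin at 72 h differed from that at 2 h by edgeR's test of the difference for 22 of 64 members in the higher direction and 22 in the lower. Over all genes the shares were 38.0% and 38.1%. The 5 largest differences upward on the log2 scale were 7.32 for EIF4A1, whose counts are uncertain, 2.39 for EEF1D, 2.24 for ETF1, 2.20 for EIF4G3 and 2.16 for EIF5, and the 5 largest downward were -6.14 for EIF4E3, -1.96 for EIF2B1, -1.77 for EIF4A3, -1.74 for EIF3K and -1.64 for EIF2B3. EIF1AD (2.06) and EIF4ENIF1 (1.14) were called lower at 2 h and higher at 72 h. With library size alone their rises at 72 h turned to -0.03 and -0.02, and the call of EIF4ENIF1 at 2 h was lost with DESeq2's size factors. EIF5 and EIF2B3 were named after their values had been seen.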

How the results depend on the processing

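Scaling changed the counts of calls most at 10, 24, 48 and 72 h and the replicate block at 2 h, and with 1 library an arm at 24 and 48 h no spread can be set against it. Scaled to the mitochondrially encoded genes, 0 members were higher at 10 h, where 3.04% of all genes were higher. At 24 h 0 were higher and 47 of 64 lower, where 8.98% of all genes were higher and 71.1% lower, and at 48 h 3 and 42, where it was 20.1% and 59.1%. At 72 h 9 were higher, for the difference between 72 and 2 h 2 were higher, and at 2 h 0 were lower. With library size alone, 10 were higher at 10 h, where 11.3% of all genes were higher. At 24 h 5 were higher and 22 lower, against 16.3% and 48.3% of all genes, and 11 were higher at 48 h, against 30.7%. At 2 h, 1 member was lower with DESeq2's size factors, without a filter, at an adjusted p under 0.05, with all 17 libraries or with the libraries of 2 h only. In these fits 4.91% to 7.8% of all genes were lower. With the replicate block at 2 h, 8 of 62 were higher and 6 lower, where 8.72% of all genes were higher and 18.7% lower. At 72 h the deviations of same-numbered libraries correlated at -0.264, 0.162 and -0.23, so the numbers were not taken as pairs. The block there gave 31 of 63 higher and 23 lower, where 45.1% of all genes were higher and 43.9% lower.

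With each library left out in turn, members higher and lower ranged over 0 to 1 and 1 to 2 at 2 h, 19 to 21 and 21 to 22 at 10 h, 25 to 30 and 22 to 26 at 72 h, and 21 to 25 and 21 to 24 for the difference. In the fits of this kind at 72 h, 45.2% to 46.7% of all genes were higher and 41.0% to 41.5% lower. Leaving out the members whose counts are uncertain was an alternative chosen after seeing the data. It gave 15 higher and 21 lower at 10 h, against 20.4% and 24.4% of all genes. At 72 h it gave 28 and 23, against 47.0% and 41.9%.

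Of 2690 alternative values of members, 2460 kept their call or stayed without one, 105 lost the call, 83 gained one and 42 were counted as turned in direction. At 72 h with mitochondrial scaling these were EIF4E2 -0.44, EIF4B -0.71, EIF4H -0.85, EIF3G -0.20, EIF3M -0.59, EIF3L -0.61, EIF3A -0.83, EIF3I -0.93, EIF5A -0.24, EEF1E1 -0.21, EEF1A1 -0.73, GSPT1 -0.96, EIF2B2 -0.40, EIF4ENIF1 -0.49, EIF6 -0.15 and EIF1AD -0.49. With library size alone they were EIF4B -0.25, EIF4H -0.38, EIF3M -0.14, EIF3L -0.15, EIF3A -0.37, EIF3I -0.46, EEF1A1 -0.28, GSPT1 -0.47, EIF4ENIF1 -0.02 and EIF1AD -0.03. With DESeq2's size factors and Wald test they were EIF3F 0.27, EIF3J 0.27 and EIF3D 0.05. At 10 h with mitochondrial scaling they were EIF4B -0.56, EIF3K -0.11, EIF3I -0.20, EIF3C -0.25, EIF3L -0.33, EIF3E -0.45, EEF1D -0.14, EIF2D -0.59, EIF4EBP1 -0.25 and EIF1 -0.44. The 42 do not hold every change of sign, since uncalled members can change sign and still count as unchanged. Members above 0 went from 34 of 65 with TMM to 11 with mitochondrial scaling at 10 h, and from 41 of 64 to 30 at 2 h. The cause of these turns was not tested.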
